A study of Mus musculus with 11 samples.

Results

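The 9 genes described here encode integrin subunits and other adhesion molecules of B cells: Itgal, Itga4, Itgb1, Itgb2, Itgb7, Itgam, Icam1, Cd44 and Cd9. They were chosen by name, with earlier results of these data known. Each matched 1 of the 48795 genes in the deposited expression table by its Ensembl identifier. RNA of sorted splenic B cells was sequenced from female mice, 8 to 12 weeks old, on day 10 after intravenous immunization with SRBC, a strong particulate antigen that induces germinal centers (GCs). LZ B cells, those of the light zone of the GC where cells compete for antigen and T cell help, came from 4 Myc WT mice (mice 1 to 4) and from 4 Myc V394D mice (mice 5 to 8). Memory B cells (MBCs) came from 3 of the Myc WT mice (mice 1, 3 and 4). Each library held 1 cell type of 1 mouse. Myc V394D is a point mutation at the endogenous Myc locus that prevents the MYC protein from binding MIZ1 but not MAX, so it is carried by every cell and not only by B cells. Cells bound by CD43 beads were first depleted. Both sorts took B220+ cells without CD138 or IgD. Among these, LZ B cells were Fas+, CD86high, CXCR4low and negative for CD38, and MBCs were positive for CD38 and CD273. The animal codes in the labels start with one prefix in Myc WT mice 1 to 3, another in Myc WT mouse 4 and a further one in all Myc V394D mice. What the prefixes stand for is not stated, and genotype and prefix cannot be told apart.

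Integrins are receptors made of an alpha and a beta subunit, and the partner decides which ligand is bound. The alpha L subunit (Itgal) with beta 2 (Itgb2) forms LFA-1, whose ligand is ICAM-1 (Icam1). The alpha 4 subunit (Itga4) pairs with beta 1 (Itgb1) to bind VCAM-1 and fibronectin, or with beta 7 (Itgb7) to bind the mucosal addressin MAdCAM-1. In GCs, B cells use LFA-1 and alpha 4 integrins to adhere to follicular dendritic cells and to T cells. In recirculating lymphocytes the same molecules guide entry into lymph nodes and mucosal tissue. Alpha M (Itgam) pairs with beta 2 to form the complement receptor of myeloid cells, which some B cell subsets also carry. CD44 binds hyaluronan and is a common marker of antigen-experienced lymphocytes. CD9 is a tetraspanin that associates with integrins in the membrane and marks marginal zone B cells, B-1 cells and plasma cells.

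In GRCm38, with annotation from GENCODE M21, the 9 protein-coding genes lie on 7 chromosomes. Itgal (ENSMUSG00000030830) spans chr7:127296260-127335138 and Itgam (ENSMUSG00000030786) spans chr7:128062640-128118491, both on the plus strand. Itga4 (ENSMUSG00000027009) spans chr2:79255426-79333123 on the plus strand and Cd44 (ENSMUSG00000005087) spans chr2:102811141-102901665 on the minus strand. The remaining genes are Itgb1 (ENSMUSG00000025809, chr8:128685654-128733200), Itgb2 (ENSMUSG00000000290, chr10:77530252-77565708) and Icam1 (ENSMUSG00000037405, chr9:21015985-21028817) on the plus strand, and Itgb7 (ENSMUSG00000001281, chr15:102215995-102231944) and Cd9 (ENSMUSG00000030342, chr6:125460266-125494791) on the minus strand. The values are of whole genes, summed over transcripts.

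The 250 bases before the RefSeq start (GRCm38.p6) are shown for Itga4 and Itgb7, the 2 genes whose higher level in MBCs held in every fit described here, and for Icam1, the ligand gene of LFA-1, the gene of the 9 that had an unadjusted p under 0.05 between the genotypes. Capitals mark exact matches, on either strand, to 4 motifs: the E-box CACGTG bound by MYC and MAX, the ETS core CCGGAA, the KLF box CACACCC and the RUNX core TGTGGT. The windows are chr2:79255176-79255425 (plus strand), chr15:102231936-102232185 (minus strand) and chr9:21015690-21015939 (plus strand).
Itga4: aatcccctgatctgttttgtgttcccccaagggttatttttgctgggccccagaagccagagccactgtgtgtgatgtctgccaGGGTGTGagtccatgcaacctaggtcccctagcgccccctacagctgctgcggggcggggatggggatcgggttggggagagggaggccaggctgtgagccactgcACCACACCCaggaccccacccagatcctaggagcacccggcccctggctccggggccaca
Itgb7: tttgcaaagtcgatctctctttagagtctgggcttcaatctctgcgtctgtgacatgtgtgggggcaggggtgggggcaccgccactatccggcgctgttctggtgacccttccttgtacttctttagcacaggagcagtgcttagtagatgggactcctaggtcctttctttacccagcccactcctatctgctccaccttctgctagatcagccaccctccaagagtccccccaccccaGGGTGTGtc
Icam1: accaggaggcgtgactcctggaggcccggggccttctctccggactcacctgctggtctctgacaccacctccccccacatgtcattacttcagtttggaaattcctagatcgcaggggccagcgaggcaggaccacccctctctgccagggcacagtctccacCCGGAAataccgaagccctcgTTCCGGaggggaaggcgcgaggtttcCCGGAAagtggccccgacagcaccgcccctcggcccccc
Itga4 held 2 KLF boxes, which begin 166 and 58 bases before the start, and a RUNX core beginning at 60 bases that overlaps the second of them. Itgb7 held 1 KLF box, 9 bases before the start, and Icam1 held 3 ETS cores at 86, 65 and 39 bases. Of all 32851 promoter windows of this length, 6.02% held the E-box, 12.0% the ETS core, 6.93% the KLF box and 14.0% the RUNX core. Among the 7 of the 9 genes that the promoter table held (Itgal and Itgb2 were not among them), none had the E-box in this window, and Cd9 had 1 ETS core 231 bases before its start. The GC content of the printed windows was 64.0% for Itga4, 56.0% for Itgb7 and 65.2% for Icam1, against a median of 52.4% for all windows. These are matches of letters only, and no binding was measured.

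Levels are given in TPM, a share of all transcripts, which are corrected for gene length and scaled to the same total in each library. The table holds no read counts, so the sequencing depth is unknown and the precision of each value is taken from the spread between mice. Ribosomal RNA genes took 35.7 to 44.5% of the TPM in Myc WT LZ, 44.1 to 61.3% in Myc V394D LZ and 36.1 to 37.5% in MBC libraries, and 11527 to 19537 genes had a value above 0. Of 7 GC B cell markers, 5 fell in MBCs, among them Bcl6, S1pr2, Mef2b and Gcsam. Of 6 memory markers, 5 rose (Cd38, Pdcd1lg2, Ccr6, Gpr183 and Cd80, the last of which reached the filter on low values only through MBCs), of which Cd38 and Pdcd1lg2, the gene of CD273, were used for the sort. A difference in a sorted population can come from a change in each cell or from another mix of cells. Fewer cells of a type and less RNA per cell cannot be told apart in these bulk libraries.

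In Myc WT LZ B cells the most abundant of the 9 transcripts were those of LFA-1, with Itgb2 at 60.3 ± 9.50 TPM and Itgal at 45.1 ± 9.33 TPM (SD, n = 4). They were followed by Itgb1 at 39.3 ± 6.16, Cd44 at 26.8 ± 3.77, Icam1 at 23.0 ± 2.35 and Itga4 at 15.8 ± 2.10 TPM. Itgb2 and Itgal, Itgal and Itgb1, and Cd44 and Icam1 had overlapping ranges. Itgb1 lay above Cd44, and Icam1 above Itga4, without overlap. Itgb7 (1.31 to 2.91 TPM), Cd9 (0 to 3.31 TPM) and Itgam (0 to 0.12 TPM) were low. The order of the means was another one in MBCs. Itgb2 (144 TPM), Itga4 (133 TPM), Cd44 (107 TPM) and Itgal (102 TPM) stood at the top, each overlapping its neighbour. The mean of Itgb2 was set by mouse 3 (311.25 TPM), and its median of 76.34 TPM was below those of Itga4 (136.18 TPM), Cd44 (106.62 TPM) and Itgal (103.59 TPM). Itgb1 (40.4 TPM) and Itgb7 (40.1 TPM) came next, and Icam1 (14.0 TPM), Itgam (6.05 TPM) and Cd9 (1.94 TPM) came last. In Myc V394D LZ B cells Itgb2 (60.0 TPM) and Itgal (43.5 TPM) again led, and Itgal lay above the next gene, Cd44 (28.0 TPM), without overlap.

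**Figure D1:**
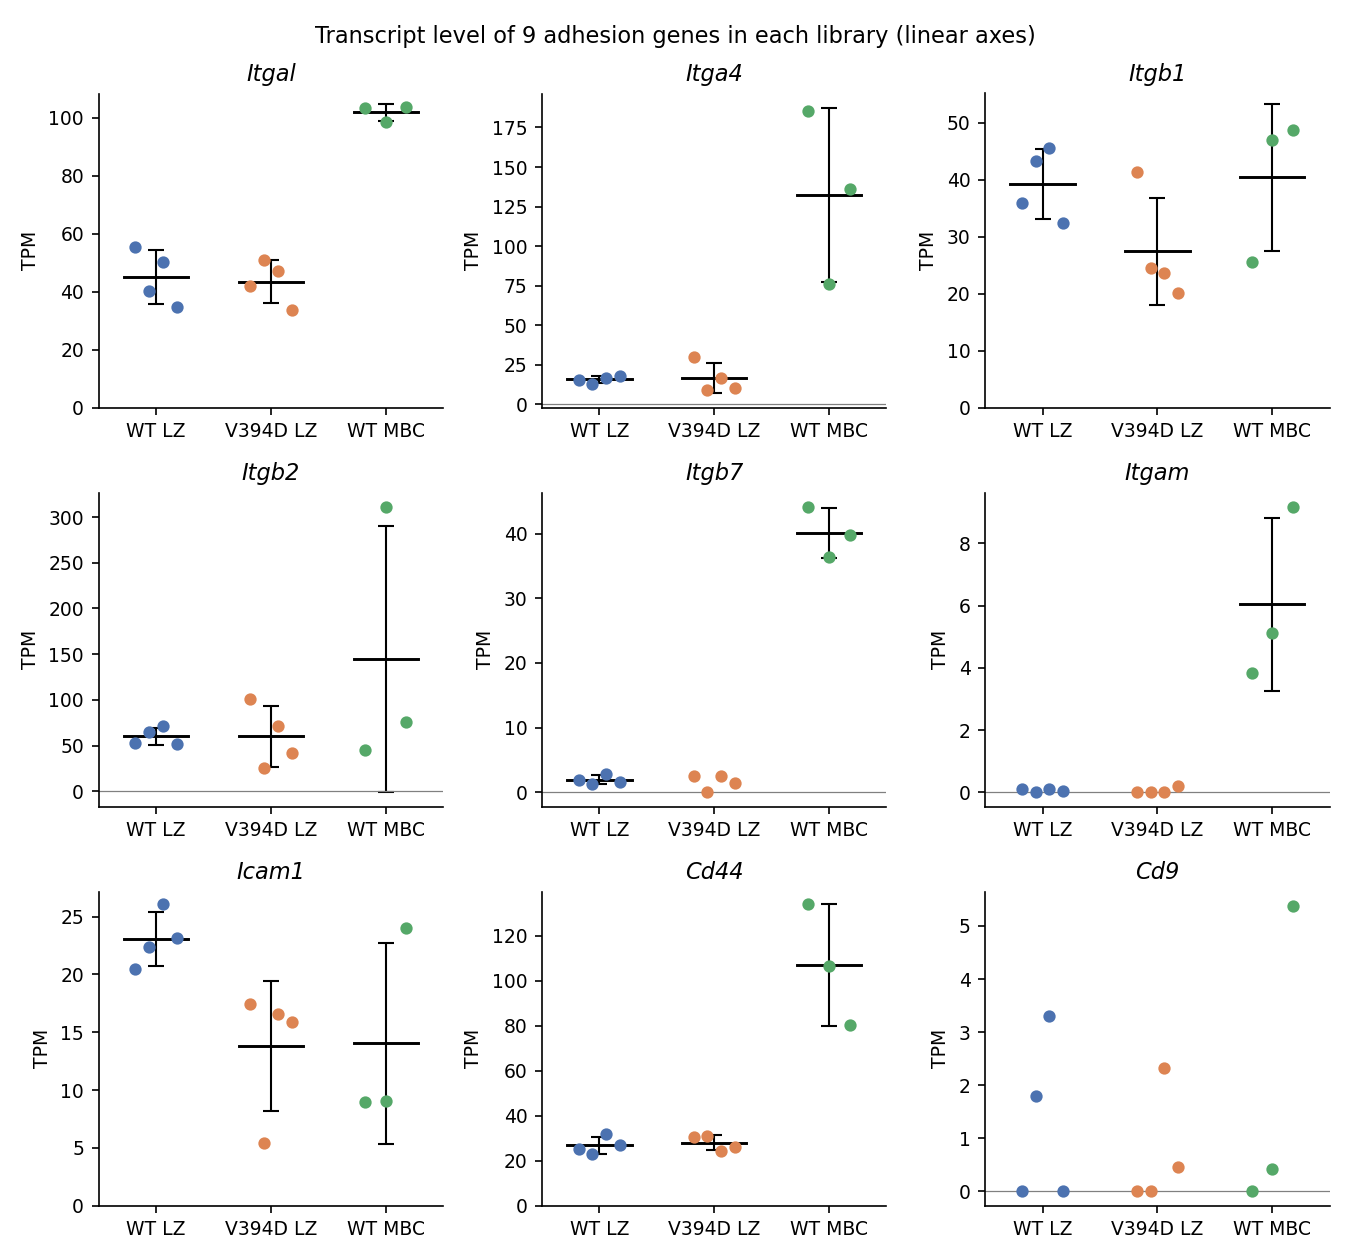
TPM of each of the 9 genes (linear axes, 1 panel per gene) in the 4 Myc WT LZ, 4 Myc V394D LZ and 3 Myc WT MBC libraries; points are mice, horizontal bars are means and error bars are SD, both left out where a library was listed at 0. The MBC points lie apart from and above all Myc WT LZ points for Itgal, Itga4, Itgb7, Itgam and Cd44, and the 4 Myc V394D points lie under all Myc WT LZ points for Icam1.

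The comparison of MBCs with LZ B cells of Myc WT mice asked how the adhesion genes differ between GC B cells and memory cells. Of the 9 genes, all of which were tested, 5 rose (Itgb7, Itga4, Itgam, Cd44 and Itgal) and 0 fell at an adjusted p under 0.05 (limma with Benjamini-Hochberg adjustment over 13245 genes). Itgam passed the filter on low values (a mean of at least 1 TPM) only through its MBC level, so it had to differ and its call adds nothing to the count. At an unadjusted p under 0.05 the counts were also 5 and 0, beside 1492 higher and 2095 lower among the 13245 genes. Over all genes tested, 9.2% were called at the adjusted threshold, 4.17% as higher and 5.04% as lower. The same 5 genes had MBC values above every Myc WT LZ value, a pattern seen in this direction for 11.8% of all genes tested. Itgam adds nothing to this count either. The median difference of the 9 genes, Itgam included, was 1.18 on the log2(TPM + 1) scale, against -0.14 for all genes tested. The 9 genes were chosen with earlier results of these data known, so these shares and medians are no independent test of them. Mice 1, 3 and 4 gave both cell types, so the mouse was also fitted as a block. That fit draws the difference from these 3 mice only, since mouse 2 has no MBC library. It called 2 of the 9 genes, Itga4 and Itgb7, and 248 of all genes in place of 1219.

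Both genes of the alpha 4 beta 7 integrin rose in MBCs. Itga4 was at 15.13, 13.18, 16.59 and 18.11 TPM in LZ B cells of mice 1 to 4, against 185.52, 75.92 and 136.18 TPM in MBCs of mice 1, 3 and 4. The groups were far apart, although the MBC libraries spread more than the LZ libraries. Itga4 rose by 2.91 ± 0.35 (SE) in log2(TPM + 1), with an adjusted p of 0.00303 in limma. Within mice 1, 3 and 4 the increase was 3.53, 2.13 and 2.84, and Itga4 kept its call with the mouse as a block (adjusted p = 0.0184). Itgb7 was at 1.97, 1.31, 2.91 and 1.64 TPM in LZ B cells, against 44.14, 36.40 and 39.83 TPM in MBCs. All 3 MBC libraries had a similar level, many times that of any LZ library. Itgb7 rose by 3.82 ± 0.41 (SE; adjusted p = 0.00212 in limma), by 3.93, 3.26 and 3.95 within the 3 mice, and with an adjusted p of 0.0352 in the blocked limma fit.

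For Itgb1, the other beta subunit that alpha 4 can use, no difference was detected. It was at 35.93, 43.23, 45.57 and 32.38 TPM in LZ B cells, against 25.51, 46.98 and 48.74 TPM in MBCs, with overlapping groups and MBC mouse 1 the lowest library of all 7. Its difference was -0.00 ± 0.33 (SE; 95% interval from -0.74 to 0.74; adjusted p = 0.997 in limma). Within a library, Itgb7 made up 2.94 to 6.0% of the summed TPM of Itgb1 and Itgb7 in Myc WT LZ B cells and 63.4%, 43.7% and 45.0% in MBCs of mice 1, 3 and 4. The log2 ratio of Itgb1 to Itgb7 was 3.78 ± 0.32 (SD, n = 4) in LZ B cells and -0.04 ± 0.63 (SD, n = 3) in MBCs, with no overlap. The exact permutation p of this difference of -3.82 was 0.0571 (two-sided), the smallest that 3 libraries against 4 can give, and 0.229 when adjusted over the 4 ratio tests made.

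**Figure D2:**
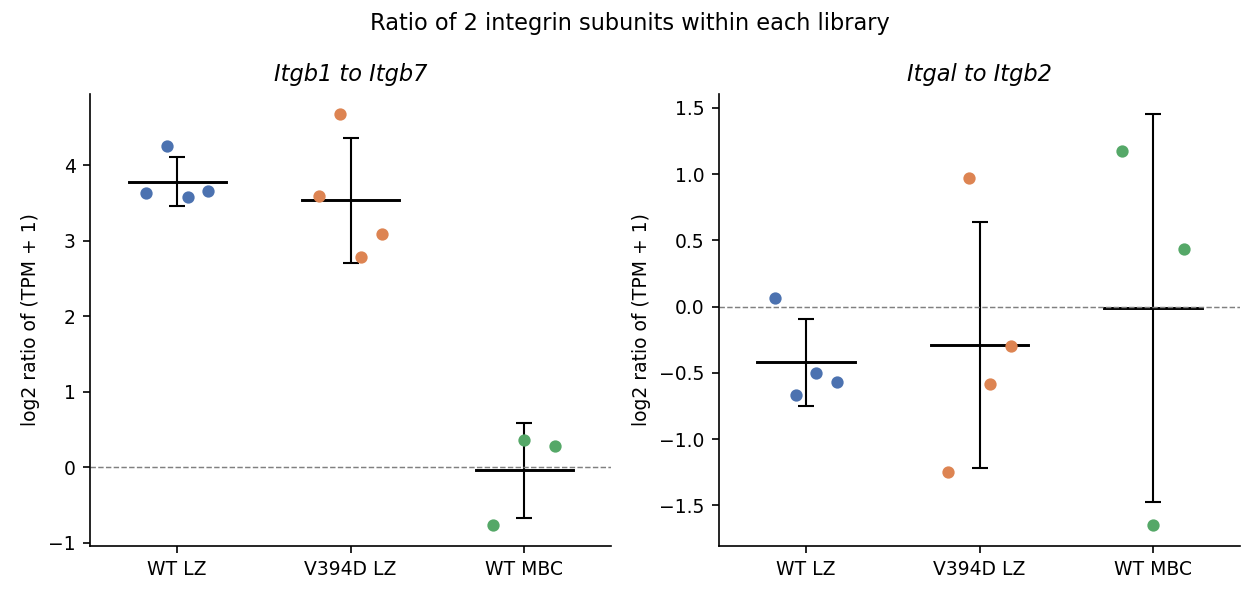
Log2 ratio of (TPM + 1) of Itgb1 to Itgb7 (left) and of Itgal to Itgb2 (right) in each library; points are mice, bars are means with SD, and the dashed line marks equal levels. The Itgb1 to Itgb7 ratio lies between -0.77 and 0.36 in the 3 MBC libraries and at 2.78 or more in all LZ libraries of both genotypes, while the Itgal to Itgb2 ratios of all groups overlap.

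Of the LFA-1 subunits, Itgal passed the test and Itgb2 did not. Itgal was at 55.29, 40.37, 50.24 and 34.69 TPM in LZ B cells, against 103.59, 98.58 and 103.72 TPM in MBCs. The MBC libraries agreed closely and lay above all LZ libraries, yet the spread of the LZ libraries was wide. Itgal rose by 1.18 ± 0.26 (SE; adjusted p = 0.0265 in limma), the smallest of the 5 increases, and by 0.89, 0.96 and 1.55 within the 3 mice. This call was lost with the mouse as a block (adjusted p = 0.202), without limma's trend (adjusted p = 0.0660) and without any 1 of the Myc WT LZ libraries (adjusted p from 0.0562 to 0.0991). The difference stayed between 1.06 and 1.28 when libraries were left out.

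Itgb2, the common beta 2 subunit, was at 52.83, 64.82, 71.53 and 52.03 TPM in LZ B cells, against 45.26, 311.25 and 76.34 TPM in MBCs. A single library, MBC of mouse 3, was far above the rest, and the other MBC libraries were within or near the LZ range. The difference of 0.77 ± 0.57 (SE) did not pass the test (adjusted p = 0.417 in limma), and it was -0.02 without MBC of mouse 3. That library also held the most erythroid RNA. The summed TPM of 5 erythroid genes, none at 0 throughout a group, was 6713 there, against 7.60 and 53.4 in the other MBC and 115 to 225 in the Myc WT LZ libraries. In Myc V394D LZ of mouse 6 this sum was 396, with Itgb2 at 25.49 TPM. Itgb3, another beta subunit, was at 67.84 TPM in MBC of mouse 3 against 0.52 and 7.04 TPM in the other MBC libraries. The part of the erythroid RNA in the Itgb2 value was not tested. The log2 ratio of Itgal to Itgb2 followed the same library, at 1.18, -1.65 and 0.44 in MBCs of mice 1, 3 and 4 against -0.67 to 0.06 in LZ B cells, a difference of 0.41 (exact permutation p = 0.629, two-sided, adjusted p = 0.800).

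Itgam, the partner of Itgb2 in the complement receptor of myeloid cells, was at 0.12, 0, 0.10 and 0.03 TPM in LZ B cells, against 3.84, 5.12 and 9.18 TPM in MBCs. The gene was thus close to or at 0 in every LZ library and low but present in every MBC library. It entered the test only through its MBC level, since its mean in LZ B cells was under 1 TPM, and without the filter on low values its adjusted p was 0.0333 (limma). It rose by 2.66 ± 0.48 (SE; adjusted p = 0.0137 in limma) on the log2(TPM + 1) scale, which understates changes of low genes, and by 2.11, 2.48 and 3.31 within the 3 mice. With a pseudocount of 0.1 in place of 1 its increase was 5.22 (adjusted p = 0.0185 in limma), above that of Itgb7 (4.34) on the same scale. The call was lost with the mouse as a block (adjusted p = 0.15) and without Myc WT LZ mouse 2, 3 or 4 (adjusted p from 0.0519 to 0.0679). The summed TPM of 8 markers of myeloid cells was 0.70 to 9.74 in Myc WT LZ libraries. It was 12.2, 37.9 and 164 in MBCs of mice 1, 3 and 4. In Myc V394D LZ of mouse 8 it was 12.4, with Itgam at 0.21 TPM. Of the 8 myeloid markers, 3 could be tested and 1, Csf1r, rose (9.99, 5.89 and 16.35 TPM in MBCs, at most 0.08 TPM in Myc WT LZ). Csf1r too entered the test only through its MBC level, so its call could only be a rise. Lyz2 was at 0.15, 31.16 and 135.59 TPM in MBCs. S100a8 and S100a9 were at 0 in all MBC libraries, and Cd14 was at 0 in all Myc WT LZ libraries. Without MBC of mouse 4, where these markers were highest, Itgam differed by 2.36 in place of 2.66 (adjusted p = 0.0120 in limma). There too it entered the test only through its MBC level. The part of myeloid cells in the Itgam value was not tested.

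**Figure D3:**
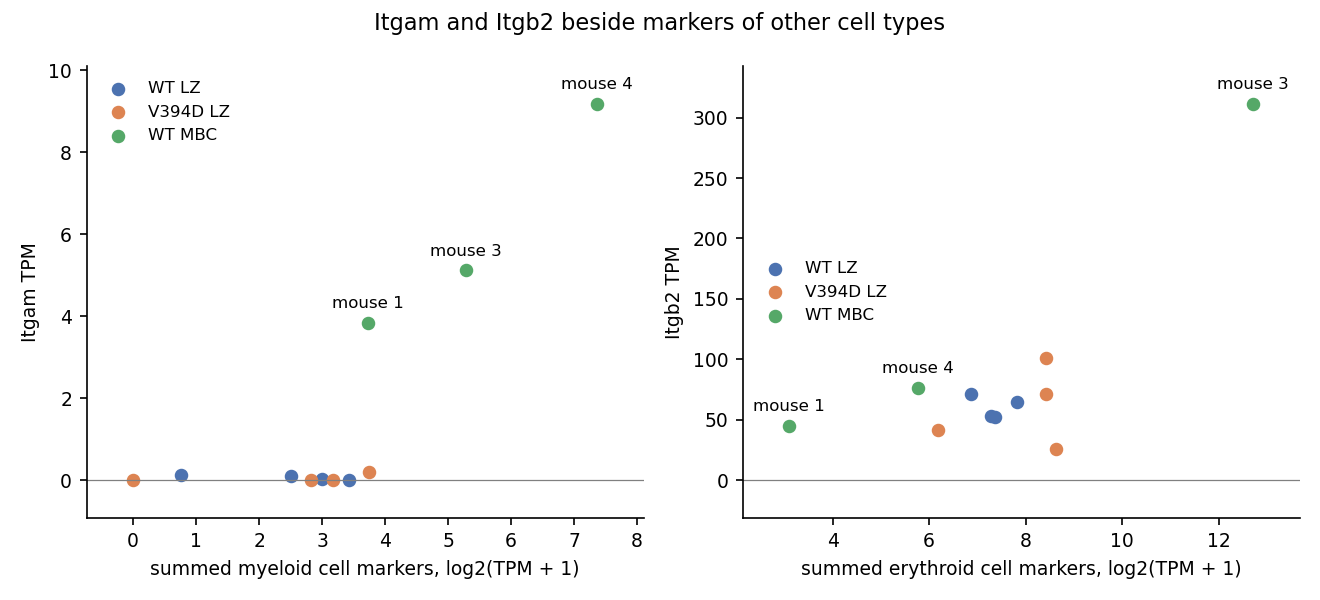
Itgam TPM against the summed level of 8 myeloid markers (left) and Itgb2 TPM against the summed level of 5 erythroid genes (right), both sums as log2(TPM + 1), in all 11 libraries with the MBC mice named. Itgam is at most 0.21 TPM in the 8 LZ libraries and 3.84 to 9.18 TPM in the MBC libraries, and the Itgb2 value of 311.25 TPM belongs to the library with the highest erythroid sum. The library with the next highest erythroid sum, Myc V394D LZ of mouse 6, has Itgb2 at 25.49 TPM.

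Icam1, which encodes the LFA-1 ligand, was at 20.50, 22.38, 26.14 and 23.13 TPM in LZ B cells, against 8.99, 9.08 and 24.06 TPM in MBCs. MBCs of mice 1 and 3 were below all LZ libraries, and MBC of mouse 4 was within their range. The difference of -0.82 ± 0.42 (SE) did not pass the test (adjusted p = 0.249 in limma). Without MBC of mouse 4 it was -1.26 with an adjusted p of 0.0299. MBC of mouse 4 was also the MBC library with the highest myeloid sum given above and the only one with T cell markers above 0 (summed TPM 17.3 over 6 genes, at most 3.98 in Myc WT LZ), and their part in its Icam1 value was not tested.

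Cd44, the hyaluronan receptor, was at 25.37, 22.88, 31.81 and 27.19 TPM in LZ B cells, against 134.11, 106.62 and 80.18 TPM in MBCs. Every MBC library was more than 2 times the highest LZ library. Cd44 rose by 1.94 ± 0.28 (SE; adjusted p = 0.00617 in limma) and by 2.36, 1.71 and 1.53 within the 3 mice. It stayed past the threshold when any 1 library was left out, but not with the mouse as a block (adjusted p = 0.0644). Cd9 was listed at 0, 1.80, 3.31 and 0 TPM in LZ B cells, against 0, 0.43 and 5.38 TPM in MBCs, so that both groups ran from 0 to a few TPM. Its difference of 0.16 ± 0.82 (SE; 95% interval from -1.70 to 2.03; adjusted p = 0.920 in limma) was far within the spread.

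Markers of other B cells also moved with the 5 genes that rose in MBCs. All 5 genes of a list of naive follicular B cells rose, among them Ighd, Fcer2a, Ccr7 and Klf2, with summed TPM of 217 to 236 in Myc WT LZ and 795 to 900.0 in MBCs and no marker at 0 throughout a group. Of these 5, 2 passed the filter on low values only through MBCs, among them Ccr7. Of the 4 B-1 cell markers, 3 were tested and 1, Bhlhe41, rose (at most 0.12 TPM in Myc WT LZ against 24.12, 7.24 and 31.83 TPM in MBCs). Bhlhe41 reached the filter only through MBCs, and the sum of the list was 3.48 to 8.10 TPM against 8.01 to 44.7 TPM. Of 5 marginal zone markers 0 passed in either direction, with sums of 209.9 to 238 TPM against 304 to 431 TPM. Of 4 markers of the LZ sort 2 rose, among them Ptprc. Of the plasma cell markers 4 were tested and of the erythroid markers 5, and 0 of either passed in limma at an adjusted p under 0.05. For T cells and platelets only 1 marker each was high enough to test, and for NK and stromal cells 0 were. The part of other cells in the differences of the adhesion genes was not tested.

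**Figure D4:**
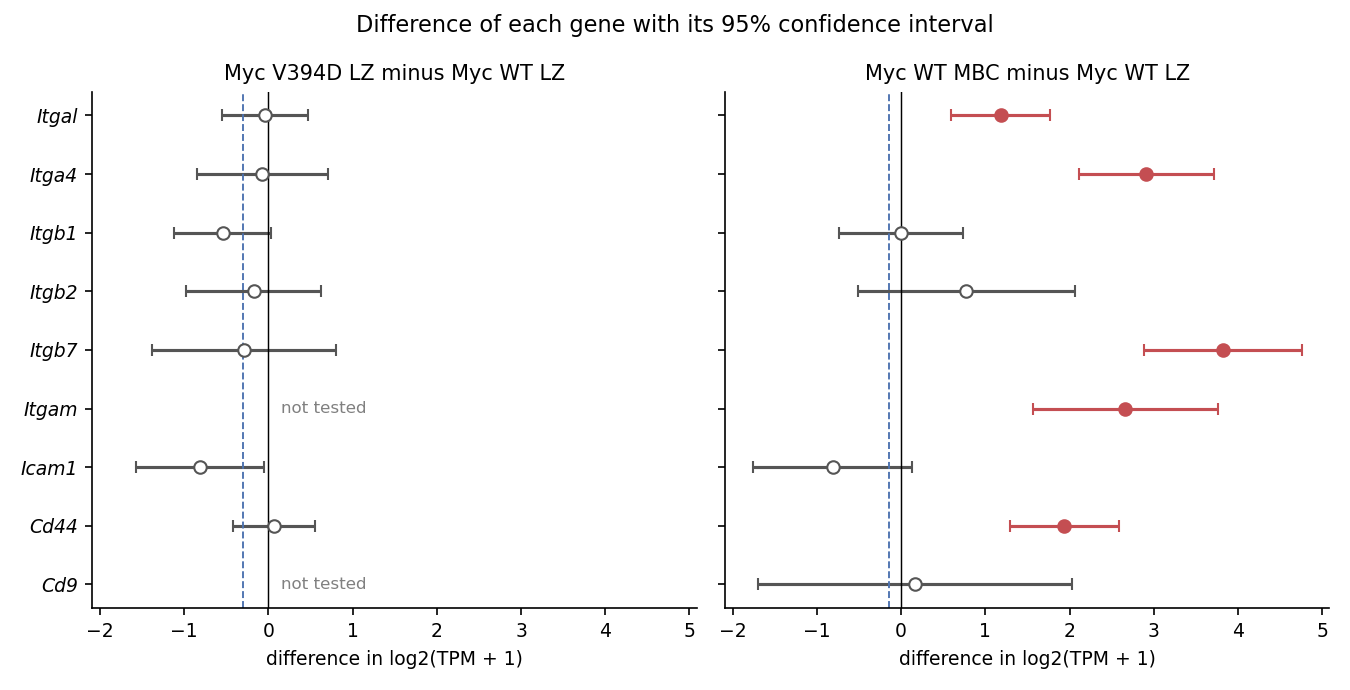
Difference in log2(TPM + 1) of each gene with its 95% confidence interval from limma, for Myc V394D LZ (left) and Myc WT MBC (right) against Myc WT LZ; filled red points have an adjusted p under 0.05 and the dashed line is the median of all genes tested (-0.31 and -0.14). The 5 filled points, all for MBCs, lie between 1.18 and 3.82, and no gene is filled for Myc V394D.

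The comparison of Myc V394D with Myc WT LZ B cells asked whether loss of MIZ1 binding by MYC alters these genes in the GC. Of the 9 genes, 7 reached a mean of 1 TPM and were tested, and 0 were called in either direction (limma, adjusted p under 0.05). At an unadjusted p under 0.05, 1 gene (Icam1) was lower and 0 were higher. Of the 12869 genes tested, 0.0466% were called, and 15.7% were lower at an unadjusted p under 0.05. All genes tested had a median difference of -0.31, and the 7 adhesion genes a median of -0.17. Rescaling the libraries by their median ratio, by quantiles or after removal of ribosomal RNA genes brought the median of all genes to -0.01, -0.01 and -0.05, so differences are also given relative to the main median. Among all genes the main fit called 1 higher and 5 lower, and quantile normalization called 4 higher and 5 lower. Markers of other cells also differed in summed level: plasma cell markers (5 genes) were at 134 to 221 TPM in Myc V394D and 229 to 381 TPM in Myc WT LZ, and erythroid genes at 340.3, 396, 344 and 71.6 TPM in mice 5 to 8 and 115 to 225 TPM in Myc WT LZ. No single marker that could be tested was called, and their part in the adhesion gene values was not tested.

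Icam1 was at 17.42, 5.43, 16.56 and 15.87 TPM in Myc V394D LZ B cells of mice 5 to 8, each below the lowest Myc WT LZ library (20.50 TPM). Mouse 6 was far below the other Myc V394D libraries, which were close to one another. The difference was -0.81 ± 0.35 (SE; 95% interval from -1.57 to -0.05; unadjusted p = 0.0391 and adjusted p = 0.270 in limma), and -0.50 relative to the median of all genes. Groups that did not overlap in the lower direction were seen in 9.16% of all genes tested. With the TPM rescaled by the median ratio or after removal of ribosomal RNA genes the Icam1 groups overlapped, at differences of -0.48 and -0.53. In their place the groups of Cd44, higher in Myc V394D, did not overlap, a pattern seen in this direction for 3.79% and 3.12% of the genes tested after these rescalings.

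Itgb1 was at 41.30, 24.57, 23.55 and 20.18 TPM in Myc V394D LZ B cells. Mouse 5 was within the Myc WT LZ range (32.38 to 45.57 TPM) and the other 3 mice were below it. The difference of -0.54 ± 0.26 (SE; adjusted p = 0.324 in limma) was -0.24 relative to the median of all genes. It was -0.75 (adjusted p = 0.0950) without mouse 5, a library whose removal took the number of genes called among all genes from 6 to 254. Itga4, the partner subunit, was at 29.89, 9.12, 16.81 and 10.20 TPM, a spread on both sides of the Myc WT LZ libraries, with a difference of -0.08 ± 0.36 (SE; adjusted p = 0.934 in limma). Itgb7 stayed low, at 2.52, 0, 2.58 and 1.49 TPM, and the log2 ratio of Itgb1 to Itgb7 differed by -0.25 (exact permutation p = 0.571, two-sided, adjusted p = 0.800).

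For LFA-1, Itgal was at 42.13, 51.05, 47.16 and 33.84 TPM and Itgb2 at 101.48, 25.49, 71.14 and 41.86 TPM in Myc V394D LZ B cells. Itgal stayed within a range like that of Myc WT (34.69 to 55.29 TPM), whereas Itgb2 spread from below to above the Myc WT range of 52.03 to 71.53 TPM. The differences were -0.04 ± 0.23 (SE; 95% interval from -0.56 to 0.47) for Itgal and -0.17 ± 0.37 (SE; 95% interval from -0.97 to 0.62) for Itgb2, and their ratio differed by 0.13 (exact permutation p = 0.800, two-sided, adjusted p = 0.800). Cd44 was at 30.66, 31.04, 24.34 and 26.15 TPM, with a difference of 0.07 ± 0.22 (SE; 95% interval from -0.42 to 0.55), which was 0.37 above the median of all genes. Itgam was listed at 0 in mice 5 to 7 and at 0.21 TPM in mouse 8, and Cd9 at 0, 0, 2.32 and 0.46 TPM, and neither was tested. The signs of Itgal, Itga4 and Itgb2 turned positive under all 3 rescalings and that of Itgb7 under quantile normalization, none of them with a call.

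The wider adhesion machinery was read from 5 further lists of genes. Their counts in MBCs stand beside 4.17% of all genes called as higher and 5.04% as lower, and their medians beside -0.14 for all genes. With the mouse as a block, 2 of the ligands and receptors and 1 of the activation genes were called, and 0 of the other 3 lists. Among 21 other integrin subunits, 4 were tested in MBCs and 0 passed the adjusted or the unadjusted threshold (limma), with a median difference of -0.11. In Myc V394D 3 were tested, with the same counts and a median of -0.41. Itgav, the alpha V subunit and the most abundant of this list, was at 24.94 to 28.96 TPM in Myc WT LZ B cells, against 8.91, 34.09 and 29.92 TPM in MBCs (difference -0.32 ± 0.46, SE).

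Among 18 integrin ligands, selectins and other adhesion receptors, 10 were tested in MBCs, 4 rose and 0 fell, with a median of 1.38. Of the 4, 2 passed the filter on low values only through MBCs, among them Vcam1. Pecam1 (CD31), an adhesion molecule of leukocytes and endothelium, rose by 2.55 ± 0.34 (SE; adjusted p = 0.00433 in limma, and 0.0203 with the mouse as a block). Vcam1, the ligand of alpha 4 beta 1, was at 0, 0, 0.03 and 0.37 TPM in LZ B cells, against 15.94, 6.67 and 31.11 TPM in MBCs (adjusted p = 0.00684 in limma, blocked 0.0599). The summed myeloid markers in MBCs of mice 1, 3 and 4 were 12.2, 37.9 and 164 TPM, and their part in the Vcam1 values was not tested. Cd47, which binds integrins and the inhibitory receptor SIRP alpha, rose by 1.07 ± 0.23 (SE; adjusted p = 0.0244, blocked 0.183), and Cd24a, the most abundant of the list, differed by -0.94 ± 0.31 (SE; adjusted p = 0.0934).

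Among 32 genes of integrin activation and its linkage to actin, 26 were tested in MBCs, 5 rose and 0 fell, with a median of 0.14. Rasgrp2, the exchange factor that activates RAP1, rose by 2.11 ± 0.29 (SE; adjusted p = 0.00522 in limma, blocked 0.0339), from 23.53 to 36.82 TPM in LZ B cells to 141.85, 143.78 and 94.8 TPM in MBCs. The other 4 were Fyb (3.20), an adaptor that links signals to integrins, which also entered the test only through its MBC level (mean 0.952 TPM in Myc WT LZ), and Flna (1.69), which crosslinks actin and binds integrin tails, with Dock2 (1.19), a RAC activator of lymphocyte migration, and Apbb1ip (0.95), the RAP1 effector RIAM. Each of these lost its call with the mouse as a block (adjusted p from 0.0546 to 0.271). Rap1a, the most abundant of the list, differed by -0.77 ± 0.38 (SE; adjusted p = 0.230). Talin-1 (Tln1) and kindlin-3 (Fermt3), which bind beta subunit tails, differed by 1.03 ± 0.33 and -0.19 ± 0.37 (SE; adjusted p = 0.0836 and 0.785 in limma). This pair was chosen after its values were seen.

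Among 21 tetraspanins and partners of CD9, 16 were tested in MBCs, 2 rose and 0 fell, with a median of 0.12. Tspan32 rose by 2.08 ± 0.52 (SE; adjusted p = 0.0392 in limma, blocked 0.0679), with its highest value, 217.65 TPM, in MBC of mouse 3. Cd37, the most abundant of the list, differed by 0.61 ± 0.18 (SE; adjusted p = 0.0696). Of 11 genes that link CD44 to actin or belong to hyaluronan metabolism, 7 were tested, 1 rose and 1 fell, with a median of 0.71. Msn, which encodes moesin, the link of CD44 to actin, rose by 1.02 ± 0.20 (SE; adjusted p = 0.0191, blocked 0.132), from 312.74 to 476.09 TPM in LZ B cells to 762.53 to 829.82 TPM in MBCs. Hmmr, a hyaluronan-binding protein that is also a component of the mitotic spindle, fell by 3.45 ± 0.84 (SE; adjusted p = 0.0367, blocked 0.0743). In Myc V394D LZ B cells 0 genes of these 4 lists were called (limma), where 8, 26, 16 and 7 were tested. At an unadjusted p under 0.05, 1, 5, 7 and 0 of them were lower and 0 were higher, beside 15.7% lower among all genes, and the medians were -0.06, -0.11, -0.52 and -0.07, beside -0.31 for all genes.

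**Figure D5:**
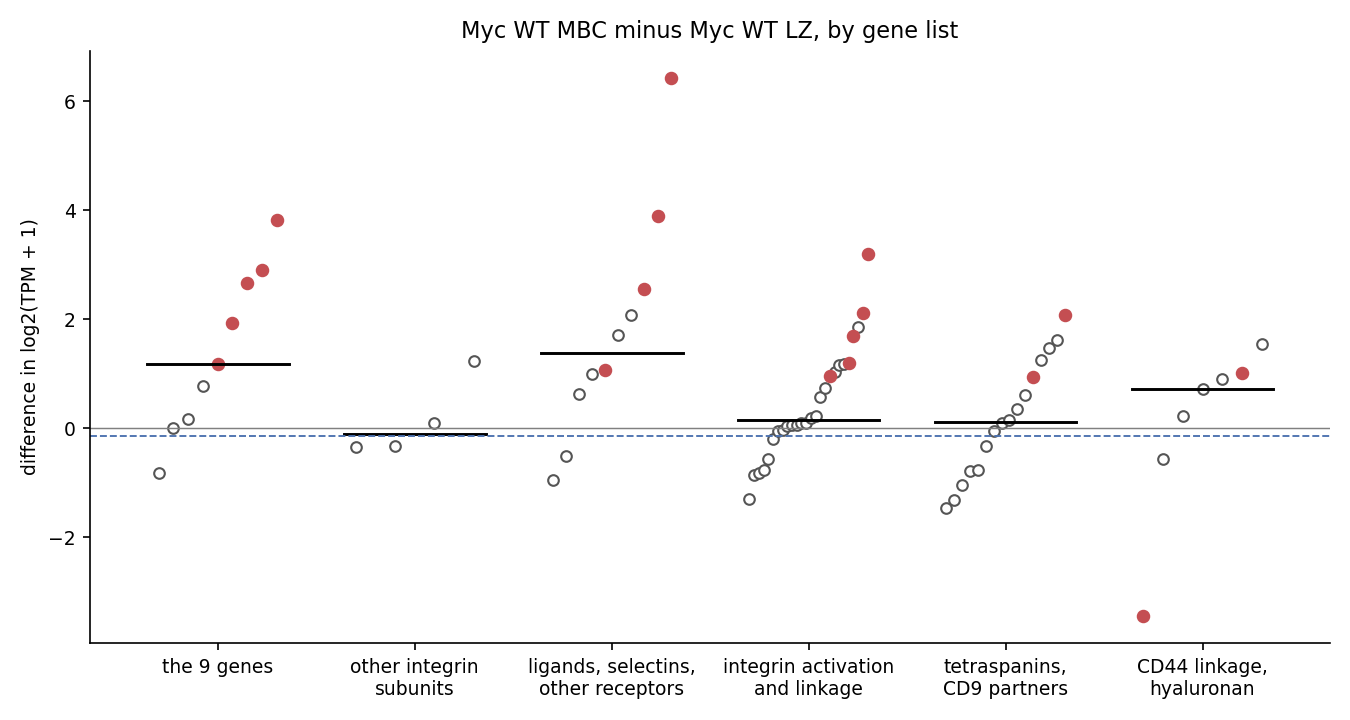
Difference in log2(TPM + 1) between Myc WT MBC and Myc WT LZ for each tested gene, by list; filled red points have an adjusted p under 0.05, short bars are list medians and the dashed line is the median of all genes tested (-0.14). The 5 filled points among the 9 genes and the 4 among the ligands and receptors are all above 0, the other integrin subunits have none, and the lowest filled point is Hmmr at -3.45.

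For the 5 genes that rose in MBCs, the protein-coding genes with the most similar pattern were found among 8007 genes averaging at least 5 TPM, by Pearson's r of log2(TPM + 1) over the 11 libraries. These values are a description, since the 3 MBC libraries stand apart from the 8 LZ libraries and a large share of each r comes from that step. Itgb7 was most like Mndal (r = 0.988), Cmah (r = 0.988) and Cd38 (r = 0.986), and Itga4 was most like Tgs1 (r = 0.979), Cmah (r = 0.976) and Ccpg1 (r = 0.973), so that both shared Cmah, which encodes an enzyme that modifies sialic acid. Cd44 was most like Gimap1 (r = 0.987), Pdcd1lg2 (r = 0.986) and Arid5b (r = 0.986). Cd38 and Pdcd1lg2 encode proteins by which the MBCs were sorted. Itgal was most like Cnr2 (r = 0.978), Notch2 (r = 0.972) and Trim34a (r = 0.967), and Itgam was most like Arhgef18 (r = 0.983), Tlr7 (r = 0.979) and Ccr7 (r = 0.978).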

How the data were processed

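Per the labels, the authors aligned reads of 11 mouse libraries with STAR 2.5.2a, quantified them with RSEM 1.3.0 (strand-specific, GRCm38) and deposited TPM per gene; the labels also name DESeq2 1.18.1, which was not used here because TPM are not counts. The annotation release is not given in the sources used here, and depth is unknown. Groups came from the labels, and symbols, biotypes and coordinates from GENCODE M21 by Ensembl identifier (48435 of 48795 genes). Groups were compared 2 at a time with limma 3.58.1 in R 4.3.3 (lmFit, eBayes with a trend, two-sided) on log2(TPM + 1), keeping genes that averaged 1 TPM or more in the libraries compared, with Benjamini-Hochberg adjustment over all genes at 0.05. Ratios used exact permutation tests (scipy 1.17.1, Python 3.11.15). The 2 comparisons share the Myc WT LZ libraries.

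The fits were also run on simulated data, but the outcome is not reported here and nothing is concluded from it. MBC and LZ libraries of mice 1, 3 and 4 are from the same animals, so the mouse was added as a block; their deviations from the group means correlated by 0.00507, 0.0115 and -0.047. The 9 genes, the 5 lists and 13 marker lists were chosen with earlier results of these data known. Named were the 9 genes, in each list the most abundant gene and up to 5 called genes, the 3 most similar genes, and markers that bear on a result. The alternatives were a pseudocount of 0.1, no filter or a mean of at least 5 TPM, 3 rescalings, limma with no trend, a joint fit of the 3 groups, the mouse block and leaving out each library. All table columns were mapped. Replicates are separate mice. Protein sequences are not shown, and some called genes of the lists are counted but not reported here by name.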

Additional observations from a re-analysis of the deposited data

Results flagged for a closer look

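Each of the 9 genes was checked for a single library far from the rest in the groups with 4 libraries, 18 groups in all; chance marks about 1 group in 20. In Myc V394D LZ B cells, Icam1 was at 5.43 TPM in mouse 6, with 15.87 to 17.42 TPM in the other 3 mice, and without mouse 6 the difference from Myc WT LZ B cells was -0.44 in place of -0.81. In the same group Itgam was at 0.21 TPM in mouse 8 and listed at 0 in the others, a level at which 1 library above 0 is enough to stand apart.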

How the results depend on the processing

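The number of the 9 genes called in MBCs was 5 in the main fit, 4 to 5 under the other settings for all libraries, 2 with the mouse as a replicate block and 3 to 6 when 1 library was left out; the 6 came without MBC of mouse 4, which added Icam1 as lower, and the 3 without Myc WT LZ mouse 2, 3 or 4, where Itgal and Itgam lost their calls. The block changed the calls of Itgal, Itgam and Cd44 and no other call of the 9 genes. In Myc V394D 0 of the genes were called under every setting run, so these settings say nothing of their stability. The number of genes with groups that do not overlap was 1 to 2 in Myc V394D (the second, without mouse 5, was Itgb1) and 5 to 7 in MBCs when libraries were left out. Smaller groups separate more easily, and the matching shares of all genes are not given here.

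Over all genes, the 6 calls in Myc V394D became 0 with a pseudocount of 0.1, without the filter, with the median ratio and with all 3 groups in 1 fit, 15 with a mean of at least 5 TPM and 1 without ribosomal RNA genes, and 0 to 254 when 1 library was left out, with 254 without Myc V394D mouse 5, 0 to 4 without 1 of the Myc WT LZ libraries and 1 to 2 without mouse 7 or 8. The 1219 calls in MBCs became 608 without the filter and 248 with the replicate block, and 342 to 2754 when 1 library was left out, the highest without MBC of mouse 4 and 342 to 519 without any 1 Myc WT LZ library.

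Signs turned only for differences with no call. In Myc V394D, with the median ratio, quantile normalization and ribosomal RNA genes removed, the difference was 0.29, 0.20 and 0.26 for Itgal, 0.24, 0.18 and 0.22 for Itga4 and 0.16, 0.0913 and 0.13 for Itgb2, and 0.0561 with quantile normalization for Itgb7. When 1 library was left out, the ranges were -0.16 to 0.0686 for Itgal, -0.40 to 0.14 for Itga4, -0.48 to 0.17 for Itgb2, -0.49 to 0.12 for Itgb7 and -0.0048 to 0.15 for Cd44. In MBCs, Itgb1 was at 0.01 with the median ratio and 0.0467 with the replicate block, and the ranges with 1 library left out were -0.16 to 0.29 for Itgb1, -0.0226 to 1.35 for Itgb2 and -0.13 to 0.70 for Cd9. The difference of the Itgb1 to Itgb7 ratio in Myc V394D was 0.38 with a pseudocount of 0.1 and -0.63 to 0.0015 with 1 library left out. That of the Itgal to Itgb2 ratio was -0.29 to 0.45 in Myc V394D and -0.19 to 1.23 in MBCs with 1 library left out. The causes were not tested. There are 3 to 4 mice per group, and with no read counts the counting error of low values, such as those of Cd9 and Itgam, is unknown.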
